A study of Thermothelomyces thermophilus with 6 samples.

Results

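The genes described here are those of Myceliophthora thermophila, a heat-loving mould now also named Thermothelomyces thermophilus, that had their highest transcript level on glucose. They were chosen by their read counts. Read counts scaled to the library total (CPM, counts per 1000000 reads) were averaged over the 2 libraries of each medium, and a gene was taken if it had at least 5 CPM on glucose and at least 2-fold more on glucose than on starch and than without carbon. Of 9110 genes, 152 met this rule. The rule also leaves out 19 named gene IDs, of which 0 met it. Because the glucose level chose these genes, glucose against either other medium is given as a description without a test.

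All libraries came from mycelium labelled as strain ATCC 42464, with 2 libraries per medium. The shared history was a preculture of 18 h at 45 °C in Vogel's salts with 2% glucose, followed by washing. The mycelium then spent 4 h in test medium that held glucose, starch (2%) or no carbon source. How much glucose that medium held is not stated in the labels, and no library was taken before the transfer. A high level on glucose therefore cannot be told apart from a level kept up from the preculture and lost elsewhere. Nothing in the labels says that replicates were separate cultures, so the p-values cover only the spread between these libraries. In bulk RNA of whole mycelium, a change in transcripts per cell and a change in which cells make them cannot be told apart.

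Glucose is a preferred carbon source of filamentous fungi. While it is present, carbon catabolite repression, which acts through the DNA-binding repressor CreA (CRE-1), holds down many genes that serve other carbon sources. The 152 genes have the opposite pattern. In filamentous fungi the genes of a shared pathway, above all in secondary metabolism, can lie side by side in the genome, and gene order was therefore examined beside the levels. Among the 152 genes, 1 has a symbol in the RefSeq gene table, cat1, which is read here as a catalase gene from the symbol alone. For the other 151 genes the deposited ID alone is used, and no role is stated. No product name was at hand for any of the 152.

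The libraries held 17726204 to 23635336 counted reads. The 152 genes took 8.69% and 8.91% of the reads of the glucose libraries, 2.19% and 2.21% on starch, and 1.05% and 1.05% without carbon. The exact 95% Clopper-Pearson intervals of these shares reached at most 0.0125 percentage points to either side and cover counting error only. Each gene is further given in RPKM, the deposited value per kilobase of gene length scaled to the library total, which allows levels of genes of unequal length to be compared. The median level of the 152 genes was 77.7 RPKM on glucose, 26.8 RPKM on starch and 13.6 RPKM without carbon, where the medians of all 9110 genes were 19.1, 22.6 and 20.9 RPKM. The glucose level spanned 2.63 to 6905 RPKM, and 15 of the genes reached 1000 RPKM. The genes were 339 to 14937 bases long, with a median of 1521 bases against 1541 bases for all genes with reads.

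The margin over no carbon was wider than the margin over starch. Glucose also lay farther from no carbon than from starch over all 8718 genes of the edgeR fit, with median absolute log2 differences of 0.962 and 0.311. The median ratio of glucose to no carbon was 6.11 (quartiles 3.41 and 11.9, highest 128). The median ratio of glucose to starch was 2.71 (quartiles 2.32 and 4.13, highest 23.4). At least 5-fold more on glucose was found against no carbon for 82 genes and against starch for 25 genes, and 18 genes met both. Only 7 genes were at least 10-fold higher on glucose than in both other media. For each of the 152 genes the lower glucose library lay above the highest of the 4 other libraries, and in 136 it was at least 2-fold above it. The rule's 2-fold limits on the means largely set both counts, and the share over all genes was not counted.

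**Figure D1:**
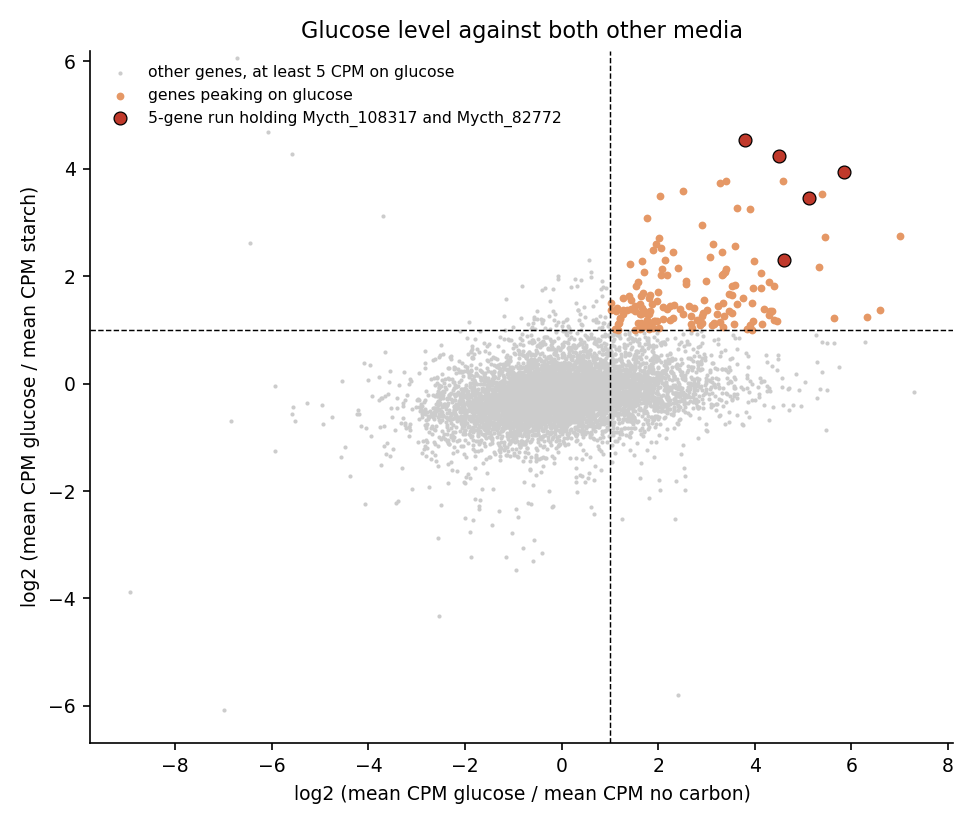
Each point is a gene with at least 5 CPM on glucose. The axes give the log2 ratio of mean CPM on glucose to no carbon (horizontal) and to starch (vertical), n = 2 libraries per medium, and genes without reads on starch or without carbon are not drawn. Dashed lines mark 2-fold, orange points are the 152 genes that peak on glucose, and red points are 5 adjacent genes, 4 of which lie at least 11-fold above starch.

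Of the 10 genes with the highest levels on glucose, 5 follow each other directly in the gene order of the RefSeq table. In that order they are Mycth_82782, Mycth_11658, Mycth_108317, Mycth_69746 and Mycth_82772. These 5 genes alone took 3.10% and 3.25% of all reads of the glucose libraries, against 0.265% and 0.279% on starch and 0.118% and 0.12% without carbon. They made up 35.7% and 36.5% of the glucose reads of the whole group of 152.

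Mycth_82772 (1194 bases) had 4690.0 and 4674 RPKM in the glucose libraries, 200.03 and 200.9 RPKM on starch and 337 and 335 RPKM without carbon. Its ratio of glucose to starch, 23.4, was the highest of the 152 genes. Its rank among all 9110 genes by RPKM was 12 on glucose, 608 on starch and 408 without carbon. Next to it, Mycth_69746 had 3434 and 3450.3 RPKM on glucose, 184 and 182 RPKM on starch and 147 and 156 RPKM without carbon. The glucose libraries of both genes lay far above the 4 others and within 1% of each other.

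Mycth_108317, the longest gene of the run with 6852 bases, had 1404 and 1542 RPKM on glucose, 88.9 and 102 RPKM on starch and 25.2 and 25.9 RPKM without carbon. It had the largest read count of the run, 10093 CPM on glucose. Per kilobase it was the lowest of the 5 on glucose, and its ratio of glucose to no carbon (57.7) was the highest of the 5. Mycth_11658 had 3501 and 3893 RPKM on glucose, 315 and 357 RPKM on starch and 104 and 109.5 RPKM without carbon. In these 2 adjacent genes the second library was the higher on glucose, on starch and without carbon, while their media still did not overlap. Mycth_82782, at the end of the run away from Mycth_82772, had 2925 and 2943 RPKM on glucose, 601 and 596 RPKM on starch and 120.1 and 120.5 RPKM without carbon.

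Along the run, the ratio of glucose to starch rose gene by gene in the order given, with values of 4.91, 11, 15.4, 18.8 and 23.4. The gene next to the run on the side of Mycth_82782, Mycth_2064854 (342 bases), was not taken by the rule. It had 1071 and 1136 RPKM on glucose, 574 and 602 RPKM on starch and 27.6 and 30.02 RPKM without carbon, and its ratio of glucose to starch was 1.88. On the other side, the next gene, Mycth_108314, had a ratio of glucose to no carbon of 0.409. The counting strand is not given in the sources used here, so reads from overlapping ends of neighbours cannot be told apart.

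**Figure D2:**
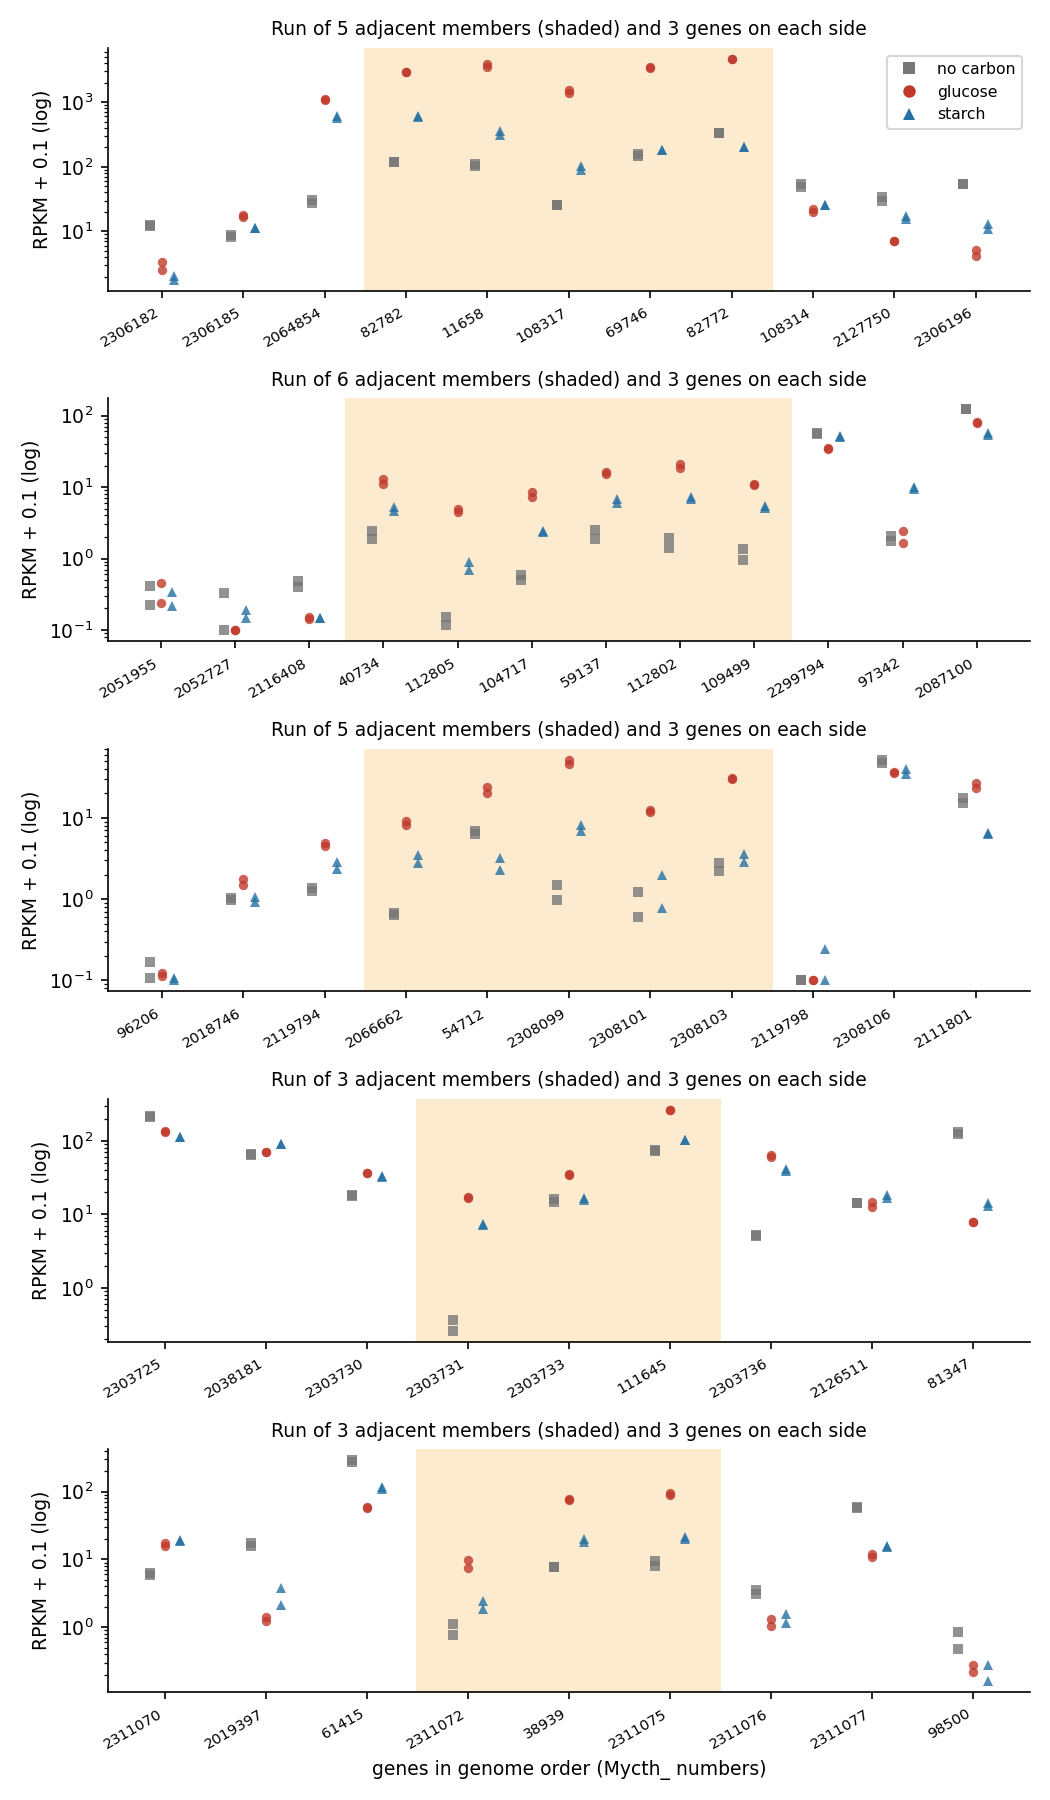
RPKM plus 0.1 on a log axis for each library (2 points per medium and gene), with genes in genome order. Shaded genes are runs of 3 or more adjacent genes that peak on glucose, and 3 genes are drawn on each side. In the top panel the 5 shaded genes lie between 1404 and 4690.0 RPKM in the glucose libraries, and the neighbours to the right have their lowest mean levels there.

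Adjacency was not limited to this run. Of the 152 genes, 34 (22.4%) had another of the 152 directly beside them, while of the 8935 other genes placed in the order 255 (2.85%) lay directly beside one of the 152. The 34 genes formed 5 runs of 3 or more genes, with 22 genes in all, and 6 pairs. For comparison, 132 genes peaked on starch by the mirrored rule. The 131 of them with a place in the order were 1.44% of all placed genes, where the 152 were 1.67%. Of these 131, 27 (20.6%) had a neighbour from their own list, and their longest run held 4 genes. Whether the shares of 22.4% and 20.6% differ was not tested. The adjacent genes had a median ratio of glucose to no carbon of 12.4 and of glucose to starch of 3.65, against 4.73 and 2.63 for the 118 others. Their median glucose level was lower, at 50.5 RPKM against 90.8 RPKM. These comparisons of medians carry no test.

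The longest run held 6 genes at low levels, in the order Mycth_40734, Mycth_112805, Mycth_104717, Mycth_59137, Mycth_112802 and Mycth_109499. Their mean levels were 4.63 to 19.4 RPKM on glucose, 0.689 to 6.93 RPKM on starch and 0.0363 to 2.09 RPKM without carbon. Mycth_112805 (7329 bases) had the highest ratio of glucose to no carbon of all 152 genes. It had 4.37 and 4.9 RPKM on glucose, 0.593 and 0.784 RPKM on starch and 0.0188 and 0.0539 RPKM without carbon. The value without carbon rests on 10 reads over both libraries, and the ratio of pooled CPM was 135 with a 95% counting interval of 73.2 to 282. All 6 genes were higher on starch than without carbon as well, with a fitted fold of 2.37 for Mycth_40734 at the low end. For Mycth_112805 at the high end the ratio of starch to no carbon in pooled CPM was 19.98, with a counting interval of 10.7 to 42.2. On the side of Mycth_40734, the next 3 genes were nearly silent in every medium, with at most 0.324 CPM.

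A second run of 5 genes held Mycth_2066662, Mycth_54712, Mycth_2308099, Mycth_2308101 and Mycth_2308103, at 8.54 to 49.03 RPKM on glucose. Mycth_2308099 stood highest, with 46.1 and 52 RPKM on glucose, 6.83 and 8.03 RPKM on starch and 1.37 and 0.864 RPKM without carbon. The members of this run were unlike each other between starch and no carbon. Mycth_2066662 and Mycth_2308099 were higher on starch (fold 5.53 and 6.68), and Mycth_54712 was lower (log2 fold change -1.28, adjusted p = 1.20e-08, edgeR). Mycth_2308103 was higher by a log2 fold change of 0.40 (adjusted p = 0.017, edgeR), a call that was lost without no carbon replicate 2, without starch replicate 2, under upper quartile scaling and after removal of the length trend. Mycth_2308101 is short (454 bases) and had 14 reads without carbon and 26 on starch. Its ratio of starch to no carbon was 1.61 with a 95% counting interval of 0.812 to 3.34, and its fitted log2 value of 0.72 ran from -0.17 (starch replicate 1 left out) to 1.34 (no carbon replicate 2 left out).

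In a run of 3 genes, Mycth_2303731, Mycth_2303733 and Mycth_111645, all genes were highest on glucose but by unequal margins over no carbon. Their ratios of glucose to starch were close, at 2.36, 2.17 and 2.57. Mycth_2303731 had 17.4 and 16.7 RPKM on glucose, 7.37 and 7.05 RPKM on starch and 0.161 and 0.264 RPKM without carbon, a glucose level 80.2 times that without carbon. For Mycth_2303731 the value without carbon rests on 14 reads, and the counting interval of the ratio was 48.7 to 151. Its neighbours Mycth_2303733 and Mycth_111645 had ratios of glucose to no carbon of only 2.24 and 3.57. The other run of 3, Mycth_2311072, Mycth_38939 and Mycth_2311075, fell outside the rule for named genes and was added after its values were seen. Its 3 genes had nearly the same profile, with ratios of glucose to starch of 4.13, 4.05 and 4.38 and of glucose to no carbon of 10.1, 9.94 and 10.5.

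The 6 pairs, described as pairs after their values were seen, were mostly unequal. Mycth_2306799 had 159.5 and 161 RPKM on glucose, 13.6 and 14 RPKM on starch and 3.68 and 3.92 RPKM without carbon, ratios of 11.6 to starch and 42.2 to no carbon. Its neighbour Mycth_2306800 had ratios of 3.51 and 11.5. Mycth_76670 stood 13.3 times above starch and its neighbour Mycth_2295856 2.56 times, and over no carbon their ratios were 9.73 and 2.19. Mycth_2310225 stood 19.8 times above no carbon and its neighbour Mycth_2310226 2.31 times, but over starch they were close, at 2.54 and 2.32. Mycth_2313963 stood 14.3 times above no carbon and its neighbour Mycth_2313964 5.94 times, and Mycth_112491 stood 49.5 times above it and Mycth_2312467 17.5 times. Over starch the order within each of these pairs was the other way. The ratios there were 2.03 for Mycth_2313963 and 3.78 for Mycth_2313964, and 2.32 for Mycth_112491 and 4.16 for Mycth_2312467. The pair of Mycth_87219 and Mycth_106527 was closer in ratio, with 4.29 and 3.57 over no carbon and 2.68 and 3.14 over starch, at far apart levels.

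The highest glucose level of all 152 genes belonged to a gene of a pair, Mycth_87219 (928 bases), which ranked 5 of all 9110 genes on glucose. It had 6841 and 6969 RPKM on glucose, 2596 and 2559.5 RPKM on starch and 1618 and 1605 RPKM without carbon. It was abundant in every medium, and its ratios of 2.68 to starch and 4.29 to no carbon were modest beside those of the 5-gene run. Its neighbour Mycth_106527 reached 63.8 and 64.2 RPKM on glucose.

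Mycth_110028 had a wide margin over no carbon and a narrow one over starch. It had 1911 and 1914 RPKM on glucose, 748 and 727 RPKM on starch and 15.9 and 23.7 RPKM without carbon, and its rank moved from 4679 without carbon to 40 on glucose. The libraries without carbon differed from each other, and both lay below all others. Mycth_112612 followed the same order, with 1603 and 1609 RPKM on glucose, 658 and 665 RPKM on starch and 83.1 and 81.7 RPKM without carbon. Mycth_109638 had 1238 and 1229 RPKM on glucose, 397 and 386 RPKM on starch and 108 and 105 RPKM without carbon.

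For Mycth_2314727, starch and no carbon lay closer together. It had 1551 and 1567 RPKM on glucose, 256 and 255 RPKM on starch and 178 and 179 RPKM without carbon. In each of these genes all 3 media were separated without overlap of their libraries.

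**Figure D3:**
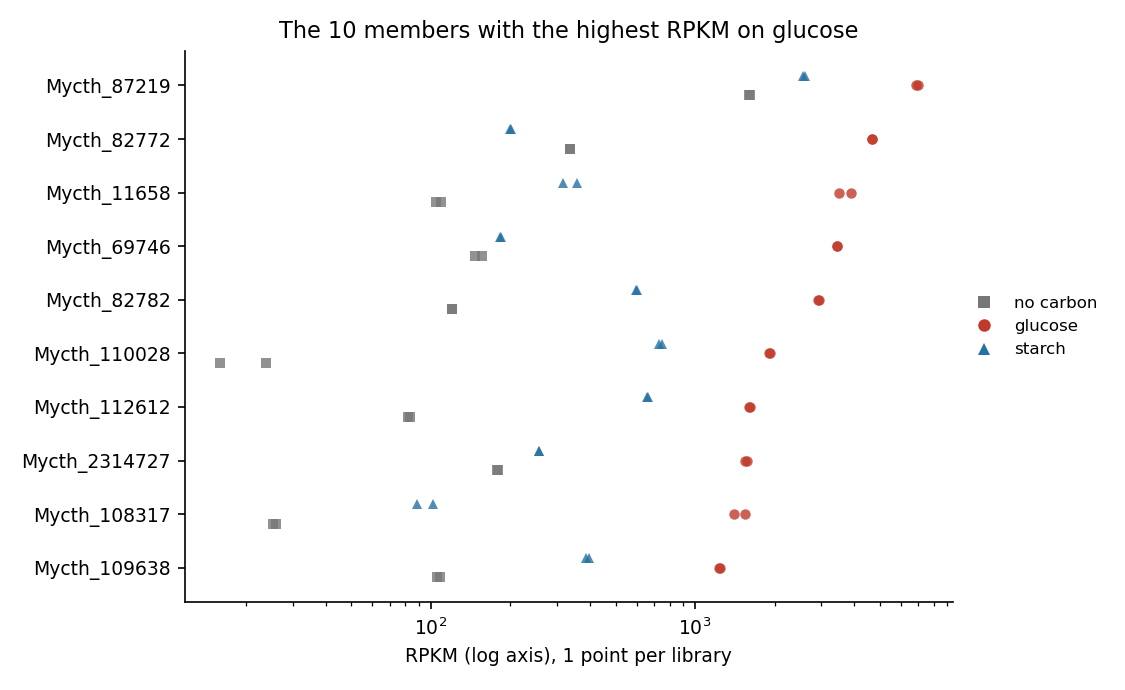
RPKM in each of the 6 libraries (log axis) for the 10 genes with the highest mean glucose level among the 152. Glucose points lie to the right of all others in every row. Starch lies above no carbon for 9 genes and below it for Mycth_82772.

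Mycth_80916, with the symbol cat1, was taken from that symbol as a gene for catalase, an enzyme that breaks down hydrogen peroxide. The gene had 45.7 and 46.5 RPKM on glucose, 19.1 and 21.4 RPKM on starch and 13.6 and 13.4 RPKM without carbon. The glucose libraries lay 2.27-fold above starch and 3.42-fold above no carbon, without overlap. Its level on starch was in turn higher than without carbon (log2 fold change 0.63, SE 0.061, adjusted p = 2.65e-13, edgeR).

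Some rarer genes had ratios of glucose to starch near those of the abundant run. Mycth_2107104 had 39.6 and 41.9 RPKM on glucose, 2.8 and 3.15 RPKM on starch and 3.32 and 4.42 RPKM without carbon. Mycth_2299852 had 37.8 and 36 RPKM on glucose, 2.76 and 2.65 RPKM on starch and 1.31 and 1.76 RPKM without carbon. Mycth_76670 was more abundant, with 365 and 379.8 RPKM on glucose, 28.1 and 28 RPKM on starch and 39 and 37.6 RPKM without carbon. Their ratios of glucose to starch were 13.7, 13.6 and 13.3. Between starch and no carbon, Mycth_2299852 was higher on starch (log2 fold change 0.88, adjusted p = 3.69e-05, edgeR) and Mycth_76670 lower (-0.41, adjusted p = 5.67e-12, edgeR). Mycth_2107104 was not called (-0.31, adjusted p = 0.0801, edgeR), but it was called lower on starch under upper quartile scaling (adjusted p = 0.0226), library totals (0.0448), the stricter filter (0.0403) and without no carbon replicate 1 (0.0143). Mycth_112491 had a margin on the other side, at 49.5 times the level without carbon and 2.32 times that on starch.

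The rule set no order between starch and no carbon, but it used the means of both, so their contrast is not independent of how the genes were chosen. The counts that follow describe the 152 genes and are no test of them as a group. At an adjusted p under 0.05 in the fit over all genes (edgeR quasi-likelihood test), 111 were higher on starch (73%), against 45.3% of all tested genes. Another 18 were lower on starch (11.8%), against 44.7% of all tested genes, and 23 were not called. By more than 2-fold, 64 were higher, against 20.3% of all tested genes, and 1 was lower, against 19% of all tested genes. The median log2 fold change was 0.85 over the 152 genes and 0.01 over all 8718 tested genes. The values over all genes are not the base that these would be read against, and the next set is none either. Of the 1591 tested genes that met the rule's limits on the glucose level and against no carbon, whatever their starch level, 97.3% were called higher on starch and 1.13% lower, with a median log2 fold change of 1.82. That outcome was largely set by the limits. The 1439 of them outside the 152 have mean CPM on starch above no carbon by the limits alone, and 99.9% were called higher. The 152 genes are the part of these 1591 in which starch was also held below the limit, which by itself lowers their starch values. A set held only to the limits on the glucose level and against starch was not made. The set of 1591 was added after the data had been seen. On the log2 scale between the no carbon and the glucose level, starch lay nearer to glucose for 50 genes, and its mean was below no carbon for 31. All 152 genes passed the filter on low counts, and all 152 also passed it when the glucose libraries were left out. After a trend on gene length over all genes was removed, which was added once the data had been seen, 104 of the 111 kept their call, 1 (Mycth_106527) was called in the opposite direction, and of the 18 lower genes 16 kept theirs and 2 (Mycth_2113755 and Mycth_45679) turned.

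**Figure D4:**
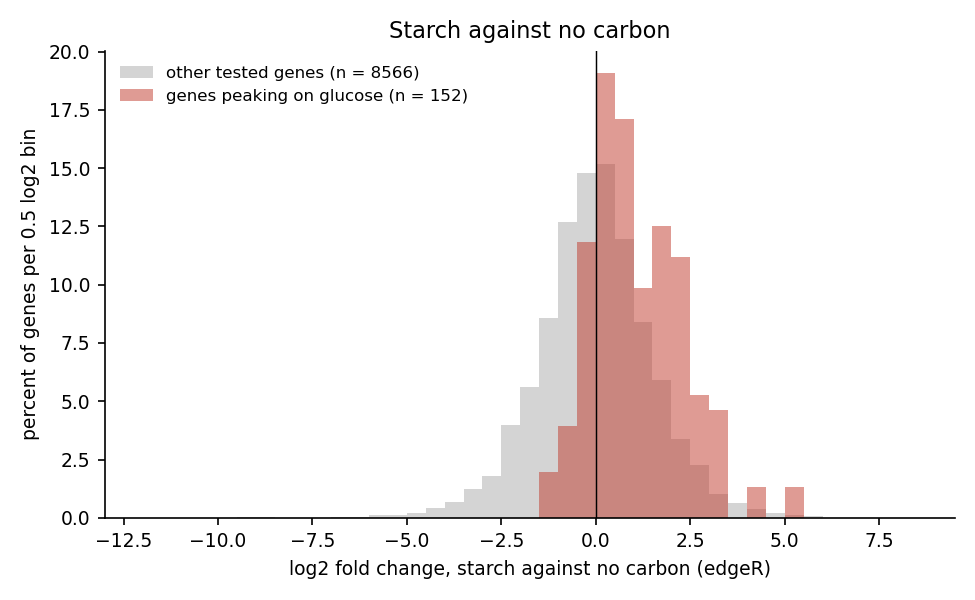
Distribution of the fitted log2 fold change of starch against no carbon, in percent of genes per bin of 0.5, for the 152 genes that peak on glucose (red) and the other tested genes (grey). The red distribution lies mostly to the right of 0, with 111 genes called higher on starch and 18 called lower.

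The largest rises from no carbon to starch were those of Mycth_110028, Mycth_2303731, Mycth_112491 and Mycth_112805. Mycth_110028 rose 39-fold (log2 fold change 5.28, SE 0.18, adjusted p = 6.65e-05, edgeR). Mycth_2303731 rose 35.3-fold (log2 fold change 5.14, SE 0.226, adjusted p = 7.09e-26, edgeR). Mycth_112491 rose 22.4-fold, from 4.14 and 6.44 to 114 and 112 RPKM (adjusted p = 2.66e-23, edgeR). Mycth_112805 rose 20.1-fold from its 10 reads without carbon (log2 fold change 4.33, adjusted p = 5.46e-17, edgeR), but its log2 fold change became 3.69 when no carbon replicate 1 was left out and 5.18 when it was no carbon replicate 2. Above starch, glucose stood a further 2.32 to 2.59 times higher in the first 3 of these genes and 6.73 times higher in Mycth_112805.

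The largest falls were those of Mycth_69953, Mycth_54712, Mycth_2059428 and Mycth_2299998. Mycth_69953 had 341 and 329 RPKM on glucose, 83.9 and 78.9 RPKM without carbon and only 31.5 and 28 RPKM on starch. It was the gene that was lower on starch by more than 2-fold (log2 fold change -1.41, SE 0.0547, adjusted p = 3.85e-28, edgeR; adjusted p for more than 2-fold 5.67e-10, glmTreat). Mycth_2059428 had 22.7 and 20.4 RPKM on glucose, 4.02 and 3.52 RPKM without carbon and 1.49 and 2.08 RPKM on starch (log2 fold change -1.04, adjusted p = 9.38e-08, edgeR). Mycth_2299998 was lower on starch by a log2 fold change of -0.78 (adjusted p = 4.50e-10, edgeR).

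The 18 genes lower on starch had a median ratio of glucose to starch of 5.56 and of glucose to no carbon of 3.56. For the 111 genes higher on starch these medians were 2.60 and 8.73. The sorting by starch against no carbon, together with the limits of the rule, sets the direction of both differences, so they are given as values only.

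Within the 5-gene run the contrast changed sign from end to end. Mycth_82782 was higher on starch than without carbon (log2 fold change 2.36, SE 0.0276, adjusted p = 1.16e-49, edgeR). So were Mycth_11658 (1.70, SE 0.107, adjusted p = 4.27e-04), Mycth_108317 (1.95, SE 0.105, adjusted p = 2.73e-04) and, by less, Mycth_69746 (0.32, SE 0.0292, adjusted p = 7.01e-14). Mycth_82772 was lower on starch (log2 fold change -0.70, SE 0.0269, adjusted p = 2.55e-28, edgeR).

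The rule could be repeated on 1 library per medium and measured in the other. All of these libraries had entered the rule, and the labels do not say that they were separate cultures. The shares that follow therefore describe only how alike these libraries were. The libraries numbered 1 gave 148 genes, of which 141 (95.3%) were at least 2-fold above both other media in the libraries numbered 2. The libraries numbered 2 gave 152 genes, of which 143 (94.1%) were so in the libraries numbered 1. Against starch alone 141 and 145 genes met the limit, and against no carbon alone 148 and 149. Replicates were close for most of the 152 genes. The median absolute log2 ratio between libraries was 0.0462 on glucose, 0.0626 on starch and 0.0777 without carbon. The largest was 0.395 on glucose, but 1.47 on starch (Mycth_2308101) and 1.52 without carbon (Mycth_112805), both at low read counts.

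Many of the 152 genes lie near the limit against starch. The 3 nearest inside it, Mycth_110956, Mycth_2295501 and Mycth_2140504, had ratios of 2.002, 2.01 and 2.01. The 3 nearest outside, Mycth_2088056, Mycth_2310816 and Mycth_2307127, had 1.98, 1.96 and 1.96. Against no carbon, Mycth_2305328, Mycth_2298783 and Mycth_2308054 lay just inside at 2.02, 2.03 and 2.13, and Mycth_2112484, Mycth_2081249 and Mycth_110532 just outside at 1.97, 1.94 and 1.88. At the limit of 5 CPM, Mycth_2119589, Mycth_2064613 and Mycth_2308101 had 5.07, 5.13 and 5.47 CPM on glucose, and Mycth_2308036, Mycth_90610 and Mycth_2106471 had 4.95, 4.89 and 3.92 CPM. The rule divides by library totals. With TMM factors, which are 0.9 for the glucose libraries and 1.04 for the starch libraries, 219 genes would meet it, all 152 among them.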

How the data were processed

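The authors deposited a table with the raw read count and the RPKM (reads per kilobase, scaled to the library total) of 9110 genes in 6 libraries, 2 per medium. Per the submitters' processing notes, TopHat2 2.0.8b and HTSeq 0.5.4p2 were used. Settings, strand, genome build and annotation remain not given in the sources used here. Gene lengths were read from the deposited RPKM and counts and were whole numbers within 0.001 bases for 100% of 8989 genes. IDs were matched to the RefSeq table of assembly ASM22609v1 (9087 of 9110, all 152 described genes), which served for symbols and gene order, with protein-coding genes alone. No coordinates are printed, since the build behind the counts is unnamed.

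Counts were fitted with edgeR 4.0.16 in R 4.3.3: filterByExpr (8718 genes tested), TMM factors, all 6 libraries without covariates, robust glmQLFit, glmQLFTest, and glmTreat against 2-fold. Benjamini-Hochberg adjustment ran over all tested genes, with a threshold of 0.05. Each SE was obtained from the fold change (log2) and the F statistic, as their ratio after taking the root of F. The fit had 3 residual degrees of freedom. The code was also run on simulated counts drawn from its own spread estimates, which does not bear on whether the libraries were separate cultures. At these depths 3 reads equal 0.127 to 0.169 CPM. Counting intervals at 95% (exact, from pooled reads) are given for described genes with at most 20 reads in a group.

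The genes and lists were chosen with earlier results of these data known. Named were the 2 marker genes of the group, genes with a symbol, the 10 highest in RPKM on glucose, the 6 highest ratios to each other medium, the 4 largest rises and falls of starch against no carbon (all with at least 10 CPM on glucose), up to 4 runs of 3 or more adjacent genes, and the 3 genes nearest each limit. Planned descriptions by annotation text, promoter and protein sequence were not made, because such text and sequence were not in the sources used here. Replicate numbers were not used to pair the libraries in the main fit. The differences between replicates correlated across 8178 genes at -0.015, 0.021 and 0.061 between media. These values do not settle whether libraries of the same number were handled together, which the labels do not state. Alternatives covered scaling, filters, DESeq2 1.42.0, left-out libraries, fits on 4 libraries, a replicate block and the rule's own limits.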

Additional observations from a re-analysis of the deposited data

How the results depend on the processing

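Of 127 values of the counts and medians under alternatives, 115 stayed within 1.5 times the reported count or within the replicate spread of the reported median. The 127 include the counts of genes over 2-fold higher on glucose than on starch (129 to 147) and than without carbon (148 to 152). The rule largely set these counts, so their steadiness says nothing further about the genes. Of 512 fold changes of single named genes, 500 had the same direction and call. The number of genes that meet the rule was 312 with a 1.5-fold limit, 58 with 3-fold, 219 with TMM-scaled CPM, 229 with DESeq2 size factors in the rule and 145 to 154 with a library left out. The genes higher on starch than without carbon numbered 107 to 114 and those lower 16 to 23 over all alternatives. The count lower by more than 2-fold was 1 or 2, and it was 2 with DESeq2 size factors (RLE) in edgeR, upper quartile scaling, library totals and the stricter filter. It ranged from 1 to 2 with a library left out. The median log2 fold change of 0.85 was 0.75 with upper quartile scaling, 0.81 with library totals and 0.80 with the stricter filter. The fold change of Mycth_2303733, not called, turned from 0.10 to -0.00399 under upper quartile scaling, and that of Mycth_2308101 from 0.72 to -0.17 without starch replicate 1, with a range of -0.17 to 1.34 over left-out libraries. The cause was not tested. With a replicate block, 111 of the 111 higher and 17 of the 18 lower genes kept their call. Library totals moved the median of all genes between glucose and starch by -0.205 (log2) relative to TMM, so ratios of glucose to starch are smaller on that scale. The share of adjacent genes was 20.4% to 27.6% under every form of the rule tried. In these forms the genes taken made up 0.638% to 3.43% of all placed genes, so the shares do not stand on 1 base. Adjacent were 70 of 312 genes with the 1.5-fold limit (list 3.43% of placed genes) and 16 of 58 with 3-fold (0.638%). With DESeq2 size factors it was 51 of 229 (2.52%). Added after the data had been seen, TMM-scaled CPM gave 48 of 219 (2.41%). With the next gene but 1 counted, 40 of the 152 had a neighbour. Promoter motifs, and so a second promoter window, were not run.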
